A study of Mus musculus with 8 samples.

Results

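The genes described are those of the calcium-calmodulin signal in heart muscle cells: the CaMKII subunit genes CAMK2A, CAMK2B, CAMK2D and CAMK2G, the calcineurin subunit genes PPP3CA, PPP3CB and PPP3R1, and the calmodulin genes CALM2 and CALM3. They were found by their symbols, and all 9 were among the 33514 rows of the count table, of which 7926 had a count in any library. RNA was sequenced from 8 libraries of cultured adult cardiomyocytes of C57BL/6 mice, of which 4 had taken up a control siRNA (siN) and 4 an siRNA (siHoxa5) against the homeobox transcription factor Hoxa5. Both groups then received phenylephrine, which activates alpha1-adrenergic receptors and induces hypertrophic growth, at 100 µM for 24 h, starting 24 h after transfection. No library without phenylephrine was used here, so the comparison, siHoxa5 with siN, lies within phenylephrine-treated cells. Whether repeats of a group are separate animals or cultures is not in the labels, and p-values then reflect only how much these libraries vary, which may be technical.

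Calcium that enters the cytosol of a cardiomyocyte binds calmodulin, a small sensor protein. Loaded calmodulin activates CaMKII, a kinase of many subunits that can phosphorylate itself and then stay active, and calcineurin, a phosphatase made of a catalytic A subunit and a regulatory B subunit. Calcineurin removes phosphate from NFAT transcription factors, which then enter the nucleus, while CaMKII acts on calcium channels, the ryanodine receptor and class IIa histone deacetylases. Both branches are known as drivers of hypertrophy downstream of alpha1-adrenergic receptors.

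The mouse genes Calm2 and Calm3 lie on different chromosomes and encode the same protein, so any difference between their coding sequences is at the level of RNA. The first 120 coding bases of each, from the GENCODE M21 transcripts (GRCm38), are shown to let a reader see where the coding sequences differ. Counts are given for whole genes, whose merged exons hold 1467 bases for Calm2 and 2423 for Calm3. This stretch alone therefore does not show what the counts of CALM2 and CALM3 rest on. Capitals mark the 18 positions of the 120 at which the genes differ.
Calm2: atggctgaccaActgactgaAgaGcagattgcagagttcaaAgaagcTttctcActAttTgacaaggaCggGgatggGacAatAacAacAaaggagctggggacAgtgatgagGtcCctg
Calm3: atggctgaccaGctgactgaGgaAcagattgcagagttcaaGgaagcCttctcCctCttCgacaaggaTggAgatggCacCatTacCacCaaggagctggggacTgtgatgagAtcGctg
Over the whole coding sequence of 447 bases, Calm2 and Calm3 were identical at 82.6% of positions, and the longest run of identical bases was 17.

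The CaMKII subunits are separate proteins with a shared kinase domain at the start. The same stretch of 3 of their genes is shown with capitals at the 41 positions of 120 at which they are not all alike.
Camk2b: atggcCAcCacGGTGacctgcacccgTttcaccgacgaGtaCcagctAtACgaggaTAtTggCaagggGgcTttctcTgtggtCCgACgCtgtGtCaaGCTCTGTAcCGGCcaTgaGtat
Camk2d: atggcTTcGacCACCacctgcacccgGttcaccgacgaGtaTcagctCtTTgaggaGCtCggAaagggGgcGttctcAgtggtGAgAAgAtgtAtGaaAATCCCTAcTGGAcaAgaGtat
Camk2g: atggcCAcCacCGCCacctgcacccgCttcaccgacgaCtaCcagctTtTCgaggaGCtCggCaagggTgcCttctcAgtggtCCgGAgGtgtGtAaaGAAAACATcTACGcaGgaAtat
Between pairs of the 4 CaMKII genes, aligned coding sequences were identical at 75.7% (Camk2d and Camk2g) to 79.1% (Camk2a and Camk2b) of positions, with identical runs of at most 32 bases. Ppp3ca and Ppp3cb were identical at 73.9%, with a longest run of 20 bases. The rule by which reads matching more than 1 gene were assigned is not known here.

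In the mouse genome (GRCm38, GENCODE M21), Camk2g spans 20734875 to 20794088 on the minus strand of chromosome 14, and Ppp3cb lies on the same chromosome and strand at 20499364 to 20546573. Camk2d (126596302 to 126846326) and Ppp3ca (136670124 to 136937727) share the plus strand of chromosome 3. Camk2b (5969644 to 6066362, minus strand) and Ppp3r1 (17159263 to 17200375, plus strand) are on chromosome 11. Calm2 is on chromosome 17 (87433412 to 87446935, minus strand) and Calm3 on chromosome 7 (16915379 to 16924114, minus strand).

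Library totals ran from 635825 to 658192 counts in siN and from 560191 to 619942 in siHoxa5. The targeted gene HOXA5 had 2, 0, 3 and 3 counts in siN libraries 1 to 4 and 1, 3, 4 and 1 in siHoxa5, so the counts do not check the labels, and each direction is that of the libraries labelled siHoxa5 relative to the libraries labelled siN. Of 11 cardiomyocyte markers 7 had counts, while TNNI3, MYL2, MYL3 and MB were listed at 0 in every library. Those 4 genes are known to be strongly expressed in heart muscle, so a 0 in this table is not read here as absent RNA, and its source was not tested. The summed level of that list was 53488 to 57023 CPM (counts scaled to library size) in siN and 67253 to 72272 in siHoxa5, most of it from the myosin heavy chain genes MYH6 (21752 and 30432 CPM on average) and MYH7 (24770 and 29350). The markers did not move together: MYH6, MYH7, ACTN2 and TTN rose, while TNNT2, cardiac troponin T, fell from 181 to 133 CPM (log2 fold change -0.44, edgeR adjusted p = 0.0257, with overlapping groups). ACTC1 (5538 and 5436 CPM) and RYR2 did not pass. Fibroblast markers summed to 10190 to 10854 CPM in siN and 10908 to 12850 in siHoxa5, nearly all from COL1A1 (8861 and 10284 CPM on average) and COL1A2 (1673 and 1858). The other 7 of the 9 had at most 36 counts over the 8 libraries (FAP), with LUM and TCF21 at 0. In bulk RNA of this kind, fewer cells of a type and less RNA per cell cannot be told apart. Endothelial (2 of 8 with counts), smooth muscle (4 of 8), immune (3 of 9) and neural (4 of 9) lists reached at most 62.0 CPM in any library. In siHoxa5, libraries 2 and 4 lay apart from the other 2 on the first principal component of tested genes.

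None of the members passed the test between siHoxa5 and siN. Of the 9, 8 passed the filter on low counts and were tested, and 0 of those 8 had an adjusted p under 0.05 (edgeR quasi-likelihood test, Benjamini-Hochberg adjustment over all 3020 genes tested), beside 7.12% of all tested genes. At an unadjusted p under 0.05 the count was also 0, beside 19.6% of all genes, and 0 of the 8 were called by DESeq2, limma-voom or any other alternative that gave them an adjusted p. The CPM values of the groups overlapped for each of the 8, while they did not overlap for 12.0% of all tested genes. Of the 8 log2 fold changes, 4 were above and 4 below 0, with a median of 0.00 beside -0.00 over all tested genes.

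**Figure D1:**
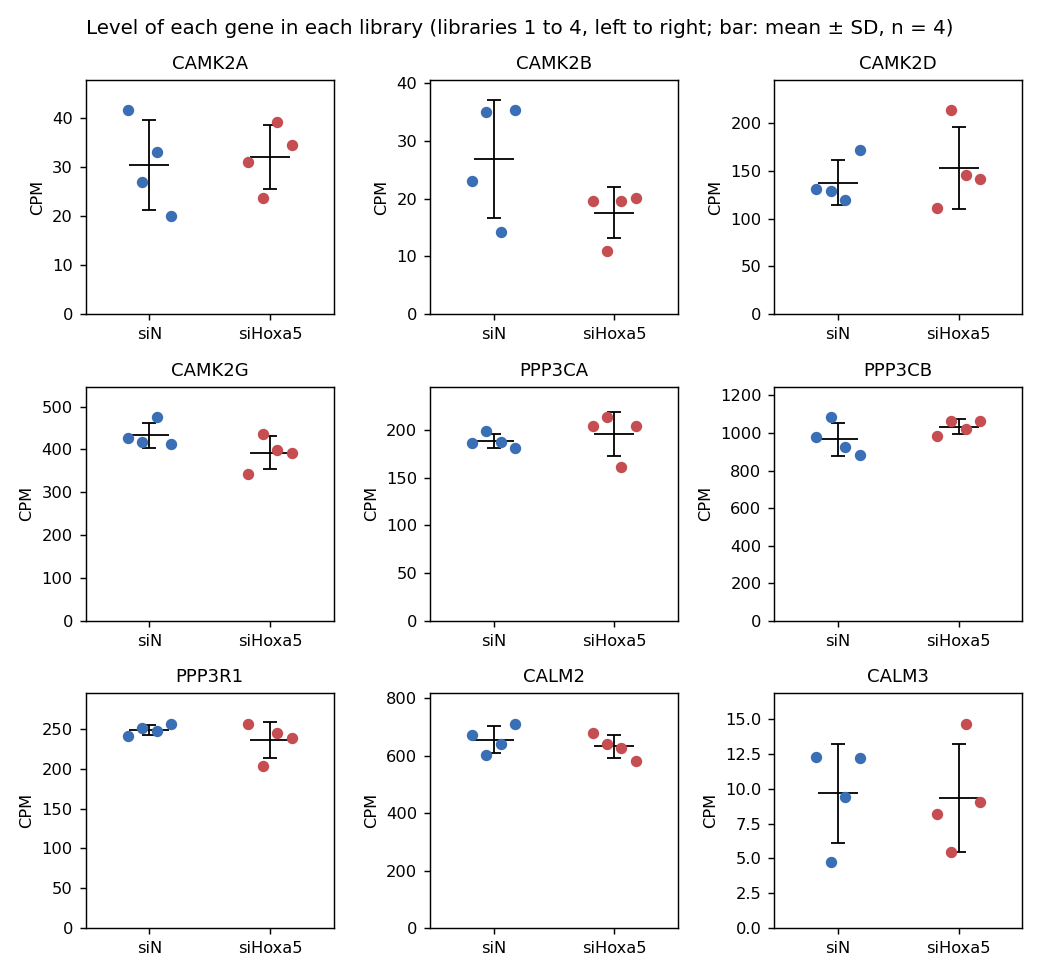
Level of each member, in CPM, in each of the 8 libraries, with siN in blue and siHoxa5 in red. Bars give the mean and SD of 4 libraries. The groups overlap in all 9 panels, and siHoxa5 library 2 is the highest value of CAMK2D and the lowest of PPP3R1 and CAMK2B.

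Among the CaMKII subunit genes, CAMK2G, which encodes the gamma subunit found in many tissues, had the most counts. Its siN libraries 1 to 4 stood at 426, 417, 475 and 412 CPM and its siHoxa5 libraries at 343, 435, 399 and 391 CPM. Library 2 of siHoxa5 lay inside the siN range and the other 3 lay below it. The log2 fold change was -0.14 (standard error 0.09, adjusted p = 0.353 by edgeR), with a 95% interval of 0.805 to 1.02 for the fold.

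CAMK2D encodes the delta subunit, the form best known in heart muscle. It had 131, 129, 120 and 172 CPM in siN and 111, 213, 145 and 142 CPM in siHoxa5. The lowest and the highest of the 8 values both belong to siHoxa5. Its log2 fold change was 0.14 (standard error 0.14, adjusted p = 0.649 by edgeR, fold interval 0.906 to 1.34) and was -0.06 without siHoxa5 library 2, so 1 library set its sign. With all libraries kept, limma gave 0.12. It gave 0.007 (adjusted p = 0.993) once trends on gene length and GC content were taken out of each library. Between siHoxa5 libraries the coefficient of variation was 28.2%, where counting alone gives 10.7%.

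CAMK2B, the beta subunit gene, known mainly from brain and skeletal muscle, had the fold change farthest from 0 among the members and the fewest counts of the tested ones, 110 in all. Its siN libraries had 23.1, 34.9, 14.2 and 35.2 CPM, from 15, 22, 9 and 23 counts. In siHoxa5 it stood at 19.6, 10.9, 19.6 and 20.0 CPM from 12, 6, 12 and 11 counts. Only siN library 3 brought the groups to overlap, since the other 3 siN libraries lay above every siHoxa5 library. CAMK2B had a log2 fold change of -0.60 (standard error 0.33, adjusted p = 0.302 by edgeR). The interval of its fold, 0.418 to 1.04, holds both no change and a loss of more than 2-fold. Adjusted p-values over the alternatives ran from 0.169 to 0.640, and DESeq2 gave it no adjusted p.

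CAMK2A, the alpha subunit gene, is best known from neurons. It was measured at 41.5, 27.0, 33.1 and 19.9 CPM in siN and at 31.0, 23.7, 39.1 and 34.6 CPM in siHoxa5. The siN range contains all 4 siHoxa5 values. With 153 counts in all, the log2 fold change of 0.08 (standard error 0.28, adjusted p = 0.909 by edgeR) left a fold interval of 0.727 to 1.55.

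Per kilobase of coding sequence, CAMK2G stood at 243 CPM over the 8 libraries (202 to 280), CAMK2D at 90.8 (69.4 to 133), CAMK2A at 21.3 (13.6 to 28.3) and CAMK2B at 11.1 (5.47 to 17.6). CAMK2G thus lay above CAMK2D in every library, while the ranges of CAMK2A and CAMK2B overlapped. Per kilobase of merged exons the order was the same, at 64.4, 6.46, 4.18 and 2.43 CPM. These levels depend on how many reads of each gene the authors' counting kept, which was not tested.

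Expressed as a share of all CaMKII counts in a library, CAMK2G held 68.9 ± 3.90% in siN and 66.1 ± 1.76% in siHoxa5 (SD, n = 4 each). CAMK2D held 21.9 ± 3.49% and 25.4 ± 4.02%, CAMK2A 4.85 ± 1.49% and 5.50 ± 1.38%, and CAMK2B 4.29 ± 1.66% and 3.03 ± 0.99%. All 4 shares overlapped between the groups. In siHoxa5 library 2 the CAMK2D share reached 31.2% and the CAMK2B share fell to 1.60%, the highest and the lowest of the 8 libraries. Summed over the 4 genes, CaMKII stood at 608 to 642 CPM in siN and at 505 to 683 CPM in siHoxa5, so the siHoxa5 values spread on both sides of siN.

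**Figure D2:**
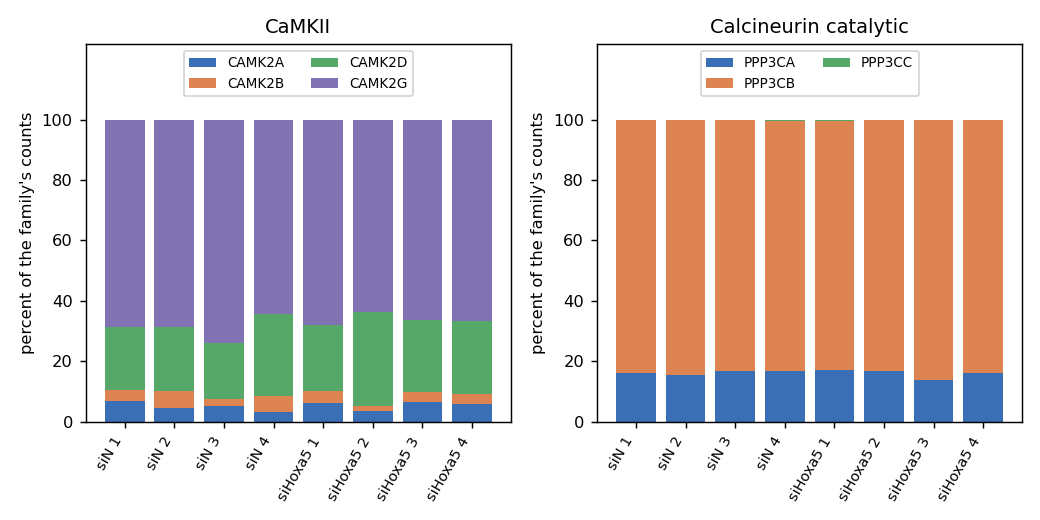
Share of each gene in the counts of its family, in percent, for each of the 8 libraries, not corrected for length. CAMK2G makes up the largest part of CaMKII counts and PPP3CB of calcineurin catalytic counts in every library.

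Of the calcineurin genes, PPP3CB, the beta catalytic subunit, had more counts than any other member. Libraries 1 to 4 had 977, 1084, 924 and 882 CPM in siN and 983, 1064, 1019 and 1066 CPM in siHoxa5. Only siN library 2 lay above the siHoxa5 range, and the other 3 siN libraries lay below it. With 4878 counts in all its log2 fold change of 0.09 (standard error 0.06, adjusted p = 0.429 by edgeR) had the narrowest interval of the members, a fold of 0.980 to 1.16.

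PPP3CA, the alpha catalytic subunit, stood at 186, 198, 187 and 181 CPM in siN and at 204, 213, 161 and 204 CPM in siHoxa5. Library 3 of siHoxa5 lay below the siN range and the other 3 lay above it. The spread between libraries was 7.42 CPM (SD, n = 4) in siN and 23.2 CPM in siHoxa5, around means of 188 and 196 CPM. Its log2 fold change was 0.05 (standard error 0.12, adjusted p = 0.866 by edgeR, fold interval 0.884 to 1.22).

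The calcium-binding B subunit, PPP3R1, was measured at 241, 251, 247 and 256 CPM in siN and at 256, 204, 245 and 238 CPM in siHoxa5. The drop was in siHoxa5 library 2, the only value under 238 CPM. PPP3R1 had a log2 fold change of -0.07 (standard error 0.11, adjusted p = 0.760 by edgeR, fold interval 0.822 to 1.10).

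The third catalytic subunit gene, PPP3CC, which is not a member and is known from testis, had 11 counts over the 8 libraries, and PPP3R2, a testis form of the B subunit, was listed at 0 in every library. PPP3CB held 83.6 ± 0.81% of the catalytic subunit counts in siN and 83.9 ± 1.57% in siHoxa5 (SD, n = 4 each). Per kilobase of coding sequence PPP3CB stood at 635 CPM (560.2 to 688 over the libraries), PPP3R1 at 475 (400.04 to 503) and PPP3CA at 123 (103 to 136). The 2 catalytic genes did not overlap on this scale, and the range of PPP3CA overlapped that of CAMK2D.

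The calmodulin gene CALM2 had 671, 603, 641 and 711 CPM in siN and 681, 641, 628 and 582 CPM in siHoxa5. The groups overlapped over most of their range, with siHoxa5 library 4 the lowest of the 8. CALM2 had a log2 fold change of -0.05 (standard error 0.07, adjusted p = 0.756 by edgeR, fold interval 0.874 to 1.06).

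CALM3 had 8, 3, 6 and 8 counts in siN and 5, 3, 9 and 5 in siHoxa5, and did not pass the filter. Both the lowest siN and the lowest siHoxa5 library were at 3 counts, the number that a count of 0 allows. In total siN held 25 counts and siHoxa5 22, so that the rate in siHoxa5 was 0.972 of that in siN (exact 95% interval 0.523 to 1.80, counting error only). A fit of every gene with a count gave it a log2 fold change of -0.03 (standard error 0.51, adjusted p = 0.974 by edgeR). Differences inside the exact interval could not be told from no change at this depth. That interval leaves out variation between libraries, so it is not a full limit of detection.

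Per kilobase of coding sequence CALM2 stood at 1442 CPM (1302 to 1590 over the libraries), above every other member in every library, and CALM3 at 21.3. CALM3 and CAMK2A had ranges that overlapped, as did PPP3CA and CAMK2D. Per kilobase of merged exons CALM2, at 439 CPM, was again the highest and CALM3 was at 3.93. How many reads of CALM2 and CALM3 the authors' counting kept was not tested. The gap between them is therefore not read here as a gap in RNA level.

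**Figure D3:**
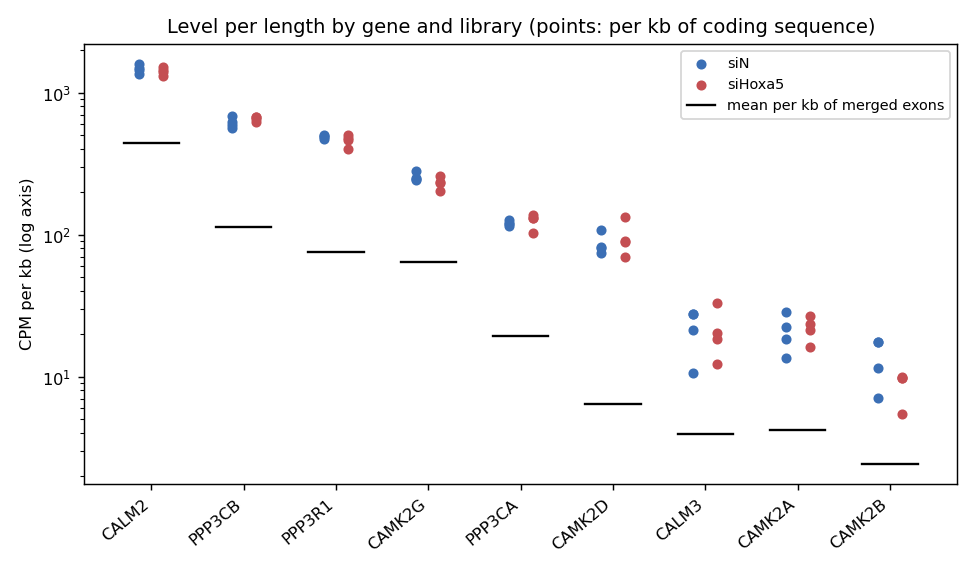
Level per kilobase of coding sequence (points, 1 for each library, siN in blue and siHoxa5 in red, log axis) for the 9 members, with the mean per kilobase of merged exons as a black line. The members run from CALM2 at 1442 CPM per kb of coding sequence to CAMK2B at 11.1.

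The intervals show what sizes of change the libraries could tell apart. For 5 of the 8 tested members the 95% interval lay within a 1.25-fold change in either direction, for 6 within 1.5-fold and for 7 within 2-fold. CAMK2D and CAMK2A reached beyond 1.25-fold, and CAMK2A and CAMK2B beyond 1.5-fold. CAMK2B alone reached beyond 2-fold. In counts simulated for this comparison with 2961 tested genes, the test found 26.6% of the genes given a 1.25-fold change, 56.7% of the genes given 1.5-fold and 93.8% at 2-fold. Every simulated gene had the same variation between libraries beyond counting error, 6.10%, and the rates are averages over genes of all levels. They do not give the detection rate of a single member, such as CAMK2D with its wider spread or CAMK2B with its few counts.

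**Figure D4:**
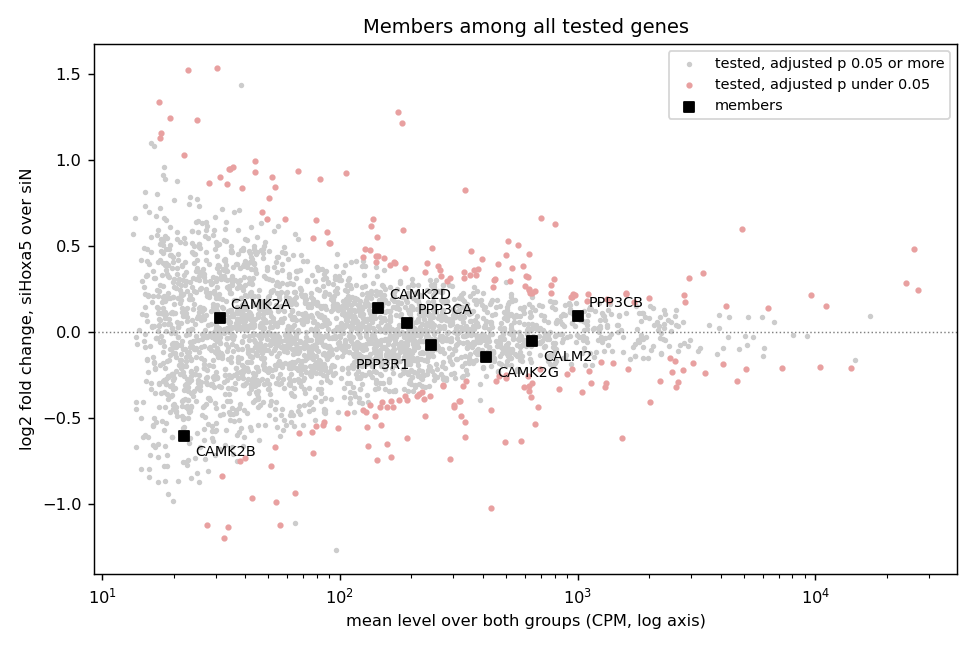
Log2 fold change (siHoxa5 over siN) against mean level in CPM on a log axis for the 3020 tested genes, with the 8 tested members as black squares. The members lie from 22.2 CPM (CAMK2B) to 999.9 CPM (PPP3CB), all outside the genes with an adjusted p under 0.05, and CAMK2B at -0.60 lies in the wide spread of genes with low levels.

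The 5 tested genes whose log2 CPM followed CAMK2B most closely over the 8 libraries were RPL29 (Pearson r = 0.93), a ribosomal protein gene, NOP56 (0.92), of the box C/D ribonucleoproteins, COPB1 (0.90), a subunit of the COPI coat, CREB3L1 (0.89), a membrane-bound transcription factor, and EFNB1 (0.89), an ephrin. They were chosen from 3019 genes on 8 libraries that share their groups and normalization, with 6 to 23 counts of CAMK2B in each, and the values are a description.

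Genes around the members were described from 7 lists of 87 genes, of which 38 were tested. Of these 38, 3 rose and 1 fell, beside 3.74% and 3.38% of all tested genes. Values of 8 of the 38 did not overlap between groups, beside 12.0% of all tested genes. The 4 called genes were CAMTA1, MEF2C, ATP2A2 and TTN, none of which encodes CaMKII, calcineurin or calmodulin itself.

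CAMTA1, a transcription activator that binds calmodulin, was the only listed gene that fell. It had 352, 351, 331 and 354 CPM in siN and 287, 260.5, 225 and 253 CPM in siHoxa5. All 4 siHoxa5 libraries lay below the lowest siN library. The log2 fold change was -0.44 (standard error 0.10, adjusted p = 0.000621 by edgeR), and it stayed between -0.50 and -0.38 with an adjusted p of at most 0.0155 under every alternative run. Of the 8 other tested genes in the list of calmodulin-binding proteins none passed. STRN, which encodes striatin, had 0.59 (SE 0.31), ATP2B1, a calcium pump of the plasma membrane, -0.14 and STRN4 -0.20, and the median of the 9 was -0.08.

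Upstream of the members, none of 6 tested genes of the alpha1-adrenergic and inositol trisphosphate route passed (median -0.11). ADRA1B, the alpha1B-adrenergic receptor, went from 65.8 ± 9.58 to 47.4 ± 14.3 CPM (SD, n = 4 each). Its log2 fold change was -0.48 (edgeR adjusted p = 0.159). Over the alternatives it ran from -0.80 (edgeR without siHoxa5 libraries 2 and 4) to -0.35. Adjusted p-values ran from 0.0470, in that same edgeR fit, to 0.429. ITPR1, the type 1 inositol trisphosphate receptor that releases calcium from stores, had 0.38 (SE 0.18) with groups that did not overlap, and PLCB3, a phospholipase C, had -0.50 (SE 0.38). ADRA1A had 2 counts in all libraries together.

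Regulators of CaMKII and calcineurin showed no call among 5 tested of 13 listed (median -0.22). CHP1, a calcineurin B homologous protein, had 130.1 ± 6.30 CPM in siN and 100.3 ± 12.6 in siHoxa5 without overlap (log2 fold change -0.37, SE 0.15, edgeR adjusted p = 0.120). PPIA, cyclophilin A, the protein through which cyclosporin blocks calcineurin, had -0.30 (SE 0.13). CAMK2N1, an inhibitor of CaMKII, had -0.22 (SE 0.22). RCAN1, an inhibitor of calcineurin whose own gene is a known NFAT target, stood at 41.5, 52.4, 53.5 and 56.7 CPM in siN and 49.0, 85.6, 48.9 and 30.9 CPM in siHoxa5 (log2 fold change 0.07, SE 0.22, edgeR adjusted p = 0.909). It is named outside the rule for named genes. Its count is of the whole gene, and NFAT activity was not measured. The siHoxa5 values of RCAN1 spread on both sides of all 4 siN values, with library 2 the highest and library 4 the lowest. MYOZ2, which encodes calsarcin-1, a calcineurin-binding protein of the heart Z-disc, was listed at 0 in all 8 libraries, as was CIB1.

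In the list of calcineurin and MEF2 effectors, 1 of 9 tested genes rose and none fell (median 0.03). That gene was MEF2C, a transcription factor of muscle genes, at 331 ± 30.6 CPM in siN and 428 ± 32.6 CPM in siHoxa5 (0.37 on the log2 scale, SE 0.09, edgeR adjusted p = 0.00173), with no overlap. NFATC3, the only NFAT gene of the 4 listed that was tested, had 0.09 (SE 0.17), the kinase genes GSK3B and CSNK1A1, whose products return NFAT to the cytosol, 0.05 (SE 0.10) and 0.09 (SE 0.05). NFATC1 was listed at 0, NFATC4 had 8 counts in all and NFATC2 50.

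Among 11 listed CaMKII substrates of the heart 9 were tested, 2 rose, none fell, and the median was 0.47. Of all tested genes 3.74% rose, and their median was -0.00. ATP2A2, the calcium pump SERCA2, rose from 544 ± 32.0 to 862 ± 91.5 CPM (log2 fold change 0.66, edgeR adjusted p = 6.62e-14) and TTN, titin, from 462 ± 56.0 to 658 ± 60.2 CPM (0.51, edgeR adjusted p = 2.15e-07). TTN was 0.15 with an adjusted p of 0.368 in limma after the trends of log2 CPM on gene length and GC content had been taken out of each library. Over the 2898 tested genes with a known length, log2 fold change was higher in longer genes (Spearman correlation 0.21). The part of gene length in the median of this list was not tested. CACNA1C and CACNB2, subunits of the L-type calcium channel, had 0.28 (SE 0.10 each). Over the alternatives CACNA1C ran from 0.19 to 0.34, with adjusted p-values from 0.0437 (edgeR without siHoxa5 library 3) to 0.387. KCND3, a potassium channel gene, had 12, 1, 10 and 4 counts in siN and 12, 15, 8 and 17 in siHoxa5 (log2 fold change 1.08, standard error 0.40, adjusted p = 0.0860 by edgeR), and its groups overlapped. The list moves with the cardiomyocyte marker list, which shares TTN and RYR2 with it and whose summed level, mostly MYH6 and MYH7, was also higher in every siHoxa5 library, although TNNT2 was called lower. The part of that in these values was not tested. PLN, phospholamban, a substrate of CaMKII at the calcium pump, was listed at 0 in every library, like the markers above, and is not read as absent.

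The list of other calmodulin-dependent kinases held 16 genes, of which 14 had a count and 0 passed the filter. MYLK, a myosin light chain kinase, had 25 counts in siN and 44 in siHoxa5. Its rate ratio was 1.94 (exact 95% interval 1.16 to 3.32, counting error only). Its levels, 6.35 to 12.6 CPM in siN and 14.6 to 22.9 CPM in siHoxa5, did not overlap, as for 12.0% of all tested genes. MYLK itself was not tested and was named after its values were seen. For every other listed kinase with a count the interval held no change. PHKA1, a phosphorylase kinase subunit, had 64 counts in all and MYLK3, the cardiac myosin light chain kinase, 54. CAMK1 had 12 counts, CAMKK2 8 and CAMK4 1, too few for a comparison.

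**Figure D5:**
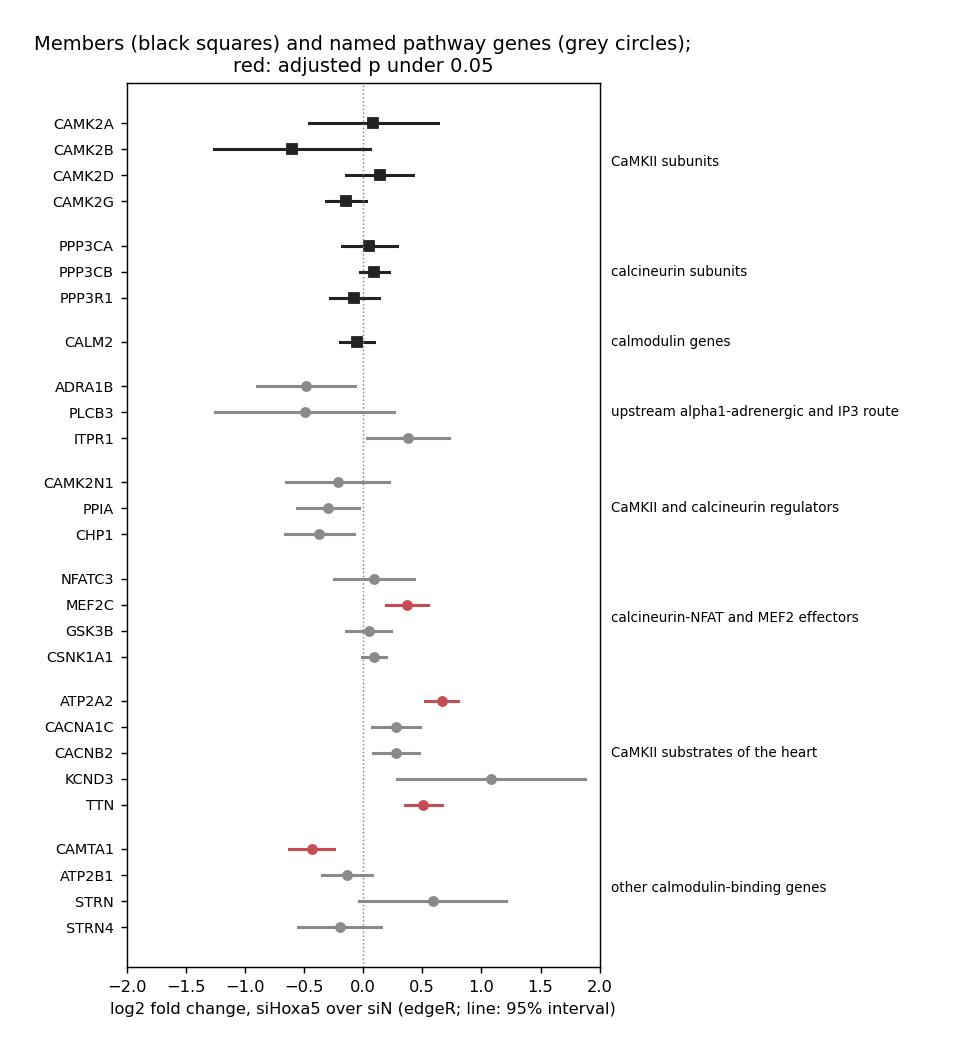
Log2 fold change (siHoxa5 over siN) with its 95% interval for the 8 tested members (black squares) and the named genes of the pathway lists (circles), grouped by list. Intervals of all 8 members cross 0, and only MEF2C, ATP2A2, TTN (higher) and CAMTA1 (lower), in red, had an adjusted p under 0.05.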

How the data were processed

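The submitters' processing notes name the build mm10 and the tools STAR 2.6.1b, FastQC 0.11.8, R 3.5.3 and HTSeq. The authors deposited estimated counts by gene symbol without normalization, whole except in 4 rows, and these were rounded here. Symbols are spelled as human genes are and were matched to GENCODE M21 ignoring case. Not given in the sources used here are the annotation, the strand setting and the handling of reads shared between genes. The named kit does not mark strand, which leaves antisense and overlapping genes unseparated. Each of the 8 library files held the same values as its column in the table of all libraries.

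Counts of all 8 libraries were tested with edgeR 4.0.16 (R 4.3.3; robust quasi-likelihood fit, TMM scaling, filterByExpr with minimum count 10 and minimum total 15, group as the only term, two-sided), with Benjamini-Hochberg adjustment over all tested genes and a threshold of 0.05. Standard errors and 95% intervals come from that fit. CPM use TMM-scaled library sizes. Tested genes held 98.6% of the counts. Intervals of ratios of summed counts and the limit of 3 counts for a count of 0 cover counting error only.

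Members, lists and tests were chosen with earlier results of these data known. Named are all members, PPP3CC, PPP3R2, HOXA5, the called genes of each list with up to 3 further genes of smallest p, and the 5 genes most like the member with the smallest p. Genes outside this rule (RCAN1 and those named for their counts of 0 or few) were chosen after their values were seen. A few genes that the rule or the lists would include are not reported here. Coding lengths and sequences are those of the transcript marked as principal, otherwise the longest complete one. Alternatives used DESeq2 1.42.0 and limma 3.58.1 (voom, and log2 CPM with a prior count of 2 for the length and GC trend, for which 96.0% of tested genes had values). The edgeR step was tested on simulated counts, where 7 of 123 calls were false.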

Additional observations from a re-analysis of the deposited data

Results flagged for a closer look

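In 5 of the groups of 4 libraries examined for the named genes, 1 library stood far from the other 3 (a gap above 0.829 of the group's range). Chance flags about 5% of groups, and 60 groups were examined. CAMK2B in siHoxa5 library 2 was at 10.9 CPM where the other 3 were at 19.6 to 20.0 CPM, from 6 counts against 11 to 12. CHP1 in siHoxa5 library 3 was at 119 CPM, above 92.8 to 96.5. MEF2C in siHoxa5 library 3 was at 380 CPM, below 439 to 451. CAMTA1 in siN library 3 was at 331 CPM, below 351 to 354, and still above every siHoxa5 library. STRN4 in siN library 1 was at 69.2 CPM, below 96.8 to 101.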

How the results depend on the processing

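The number of genes called, 215, was 112 with DESeq2 and 143 without siHoxa5 libraries 2 and 4, and 145 to 260 with 1 library left out. The same-numbered libraries of the groups share only a number (correlations of their deviations -0.02 to 0.07, with 2 of 4 siN libraries closest to their own number). With the replicate number as a block 250 genes were called, and none of the 27 tested members and list genes selected by the naming rule changed its call. No member passed under any alternative. Signs turned for members near 0: with 1 library left out CAMK2A ran from -0.075 to 0.28, CAMK2D from -0.056 to 0.27 and the pathway gene NFATC3 from -0.024 to 0.17. Without siHoxa5 libraries 2 and 4, CAMK2D was -0.10, PPP3CA -0.037, PPP3R1 0.015 and STRN4 0.096, and CALM2 was 0.044 once trends on length and GC content were taken out. The cause of these turns was not tested. CAMK2B, CAMK2G and PPP3CB kept their sign under every alternative that gave them an adjusted p, which for CAMK2B leaves out DESeq2. An added alternative, limma without removing the trend, was chosen after seeing the data and gave 188 calls. CALM3, PPP3CC and HOXA5 were fitted only without the filter. Among the members, CALM3, CAMK2B and CAMK2A had the fewest counts.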
